A study of Homo sapiens with 3 samples.

Results

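Metallothioneins and the genes that set cellular zinc were followed on 3 expression arrays of a human liver cancer line labelled HepG2. The 10 genes were MT1E, MT1F, MT1G, MT1H, MT1M, MT1X, MT2A, MTF1, SLC30A1 and SLC39A10, all present among the 19775 genes with a probe set of their own. They were read by the 18 probe sets, of 54675 on the array, whose annotated gene symbol is one of them. Each of the 18 carried 1 gene symbol, and 0 carried several. The cells had been stably transfected with an Hsp27 open reading frame vector (ORF), an Hsp27 shRNA vector, which encodes a hairpin meant to silence the gene (shRNA), or a vector serving as control, and were grown in serum-supplemented medium. The sample titles name an IRES2 vector, an siRNA and an EGFP negative control for the same 3 samples. Whether each line was 1 clone or a pool is not given in the sources used here. There was 1 array per group, so no difference below has a replicate check or a p-value, and 3 arrays set the limit of precision. Each value describes these arrays and not the conditions. In such bulk RNA, fewer cells making a transcript and less of it per cell cannot be told apart.

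Metallothioneins are small proteins rich in cysteine that bind zinc, copper and cadmium and buffer the free metal in the cell. Their genes are switched on by MTF1, a zinc-sensing transcription factor that binds metal response elements (MREs) in their promoters when zinc rises. MTF1 also activates SLC30A1, the exporter ZnT1 that moves zinc out across the plasma membrane, and in mouse and zebrafish it represses SLC39A10, the importer ZIP10. Liver is a main site of metallothionein synthesis, which is induced there by metals, glucocorticoids and interleukin 6.

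The 7 metallothionein members lie together on chromosome 16, within 75.6 kb from base 56608584 to base 56684196 of GRCh38.p14. RefSeq lists 14 metallothionein genes and pseudogenes in that stretch, of which 9 code for protein. MTF1 (chromosome 1, 37809574 to 37859592), SLC30A1 (chromosome 1, 211571568 to 211579161) and SLC39A10 (chromosome 2, 195613029 to 195737700) lie elsewhere. The promoters below are shown because they hold matches to the core of the MRE, the motif that MTF1 binds. They are the 250 bases before the transcript start, from RefSeq on GRCh38.p14, written 5′ to 3′ on the gene's strand, and capitals mark each match to the MRE core, spelled TGCACNC or TGCGCNC and searched on both strands. MT2A is chr16:56608334-56608583 (plus strand), MT1H chr16:56669564-56669813 (plus), MT1X chr16:56682220-56682469 (plus) and SLC30A1 chr1:211579162-211579411 (minus).
MT2A: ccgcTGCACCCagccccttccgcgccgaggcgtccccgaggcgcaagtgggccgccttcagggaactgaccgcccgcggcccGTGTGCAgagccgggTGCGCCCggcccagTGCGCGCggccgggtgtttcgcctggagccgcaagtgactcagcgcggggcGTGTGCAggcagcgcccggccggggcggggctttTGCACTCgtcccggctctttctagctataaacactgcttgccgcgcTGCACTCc
MT1H: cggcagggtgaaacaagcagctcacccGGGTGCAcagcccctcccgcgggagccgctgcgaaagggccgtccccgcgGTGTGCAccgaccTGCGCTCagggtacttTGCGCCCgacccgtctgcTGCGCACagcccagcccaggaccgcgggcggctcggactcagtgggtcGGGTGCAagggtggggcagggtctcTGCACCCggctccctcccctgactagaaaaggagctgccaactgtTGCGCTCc
MT1X: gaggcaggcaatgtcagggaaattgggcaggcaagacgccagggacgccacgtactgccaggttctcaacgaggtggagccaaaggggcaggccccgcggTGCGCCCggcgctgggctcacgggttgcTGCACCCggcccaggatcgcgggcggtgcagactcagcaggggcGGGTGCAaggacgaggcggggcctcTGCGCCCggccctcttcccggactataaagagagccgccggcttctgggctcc
SLC30A1: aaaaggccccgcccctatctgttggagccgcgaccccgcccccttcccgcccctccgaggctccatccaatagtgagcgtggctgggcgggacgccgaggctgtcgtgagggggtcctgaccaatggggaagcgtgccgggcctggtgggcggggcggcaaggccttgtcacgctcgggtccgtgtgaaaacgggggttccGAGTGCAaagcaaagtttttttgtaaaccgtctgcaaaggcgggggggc

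MT1H held 8 matches, MT2A 7, MT1X 4 and SLC30A1 1, with no overlap between matches. Of 35116 promoter windows of the same length, 24.8% held at least 1 match, 0.370% at least 4, 0.0313% at least 7 and 0.0171% at least 8. The MTF1 window and both windows listed for SLC39A10 held 0. A TATA box, spelled TATAAA, stood on the gene's strand in the windows of MT2A and MT1X, with no overlap with an MRE core. Of all windows, 10.7% held TATAAA on either strand at any position, a wider search than for a match placed like these. Aligned end to end, MT1H and MT1X shared 70.4% of the 250 bases, MT1H and MT2A 65.6%, and MT1X and MT2A 64.4%. The promoter table used here, made from RefSeq, matched 6 of the 10 genes, and MT1E, MT1F, MT1G and MT1M were the others. These matches describe letters, and binding was not measured.

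**Figure D1:**
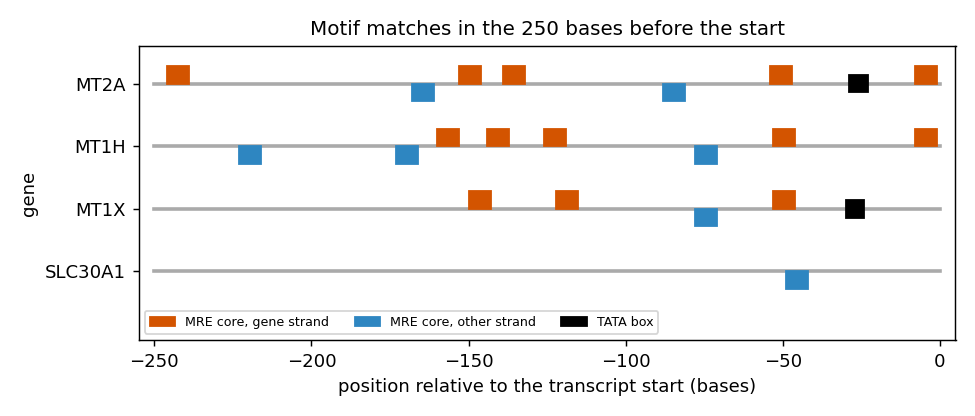
MRE core and TATA box matches in the 250 bases before the start of MT2A, MT1H, MT1X and SLC30A1. The x axis gives the position in bases before the transcript start, boxes above a line are MRE cores on the gene's strand and boxes below it are on the other strand. MT1H holds 8 MRE cores, MT2A 7, MT1X 4 and SLC30A1 1.

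Facts of the whole series bear on how far these values carry the labels. HSPB1, the gene of Hsp27, had log2 signals of 13.11 (ORF array), 13.03 (shRNA array) and 13.25 (control array). Its log2 ratio was -0.14 for ORF over control and -0.22 for shRNA over control. The SDs between probe sets of 1 gene (noise SD, explained below) were 0.083 and 0.12, so each ratio lay within 2 noise SD. All probe sets of similar signal had medians of -0.052 and -0.057. The array labelled ORF thus showed no rise in HSPB1, against its label, and neither vector showed a clear change. Every direction below is by label. Of 9 hepatocyte markers measured, including ALB, TTR and APOA1, 2 (AFP and TF) passed the floor on at least 1 array and 0 were bright, while the mesenchymal markers VIM, CDH2 and S100A4 were all bright, as were 3 of 4 epithelial markers (KRT18, KRT8 and EPCAM, with CDH1 the exception). The defining markers of hepatocytes were therefore near background in cells labelled HepG2. The floor is a log2 signal of 5.93, the pooled median over the arrays, and a bright probe set is one whose mean over the arrays reaches the 75th percentile, 8.63. Of the leukocyte markers PTPRC, CD3E and CD14, CD3E alone passed the floor.

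In all, 15 of the 18 probe sets were above the floor, and none of these 15 differed by 1.5-fold between any pair of arrays. The counts at 1.5-fold were 0 higher and 0 lower in each of the 3 comparisons. Over the 24382 probe sets with 1 symbol above the floor, the shares were 3.63% higher and 3.05% lower for ORF over control, 4.41% and 3.56% for shRNA over control, and 3.12% and 3.15% for ORF over shRNA. Counts of 0 of 15 lie near those shares and say nothing particular of these genes. The median log2 ratio over the 15 was 0.14 for ORF over control, 0.0011 for shRNA over control and 0.10 for ORF over shRNA, where the medians over all 24382 were 0, 0 and 0.00097. Without the _x_at and _s_at probe sets, suffixes that mark probes able to match several transcripts, 4 of the 15 were left and their medians were 0.019 for ORF over control and -0.14 for shRNA over control.

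The metallothioneins gave strong signals. All 9 of their probe sets above the floor were bright on every array, with signals from 9.45 to 13.51 on the log2 scale. Each of these 9 has a name ending in _x_at, and the transcripts here belong to a family of near-identical genes, so none of the values below can be given to 1 gene with certainty. The 2 metallothionein probe sets with another suffix, 1 for MT1G and 1 for MT1M, were below the floor on all 3 arrays. As a partial measure of technical noise, a noise SD was taken from 4665 pairs, each of 1 gene's probe sets, in 20 bins of mean signal. It covers differences between probes on the same RNA. It leaves out error that a gene's probe sets share, and all variation between cultures.

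**Figure D2:**
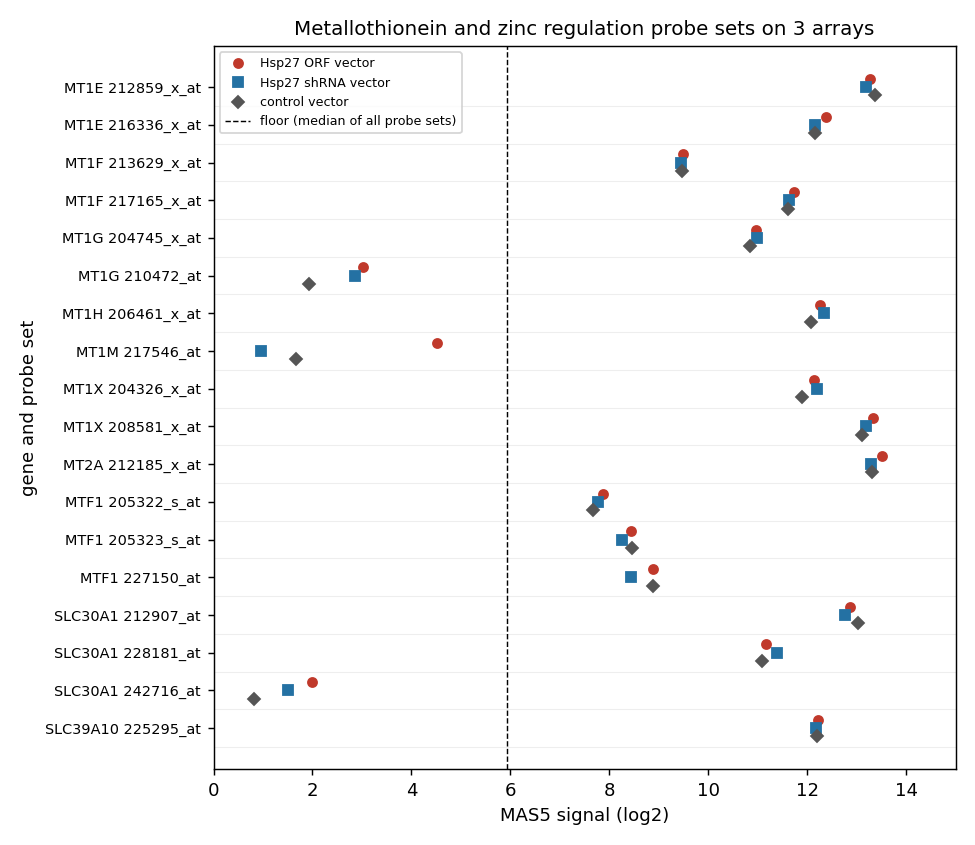
Log2 signal of the 18 probe sets (rows) on the arrays labelled ORF (circles), shRNA (squares) and control (diamonds), with the floor at 5.93 as a dashed line. Points show single arrays, levels of different probe sets cannot be compared with each other, and 3 probe sets (1 each for MT1G, MT1M and SLC30A1) lie left of the floor on all 3 arrays.

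MT2A, the MT2 isoform, which is induced by metals and stress hormones, had log2 signals of 13.51 on the ORF array, 13.30 on the shRNA array and 13.31 on the control array (212185_x_at). The ORF array was thus above both others, and the shRNA and control arrays lay together. Its log2 ratio was 0.19 for ORF over control (1.14-fold, noise SD 0.083), -0.017 for shRNA over control (noise SD 0.12) and 0.21 for ORF over shRNA (1.16-fold, noise SD 0.089). In the same signal bin, all probe sets had a median of -0.052 and an SD of 0.13 for ORF over control.

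MT1X, a zinc-binding isoform of the MT1 group, had 2 probe sets above the floor. One read 13.34 on the ORF array, 13.18 on the shRNA array and 13.11 on the control array (208581_x_at). The other read 12.14 on the ORF array, 12.20 on the shRNA array and 11.91 on the control array (204326_x_at). This one is annotated with a non-coding RefSeq transcript and the first with a coding one, so they may not read the same gene. Control was lowest on both probe sets, and the order of ORF and shRNA differed between them. For ORF over control the log2 ratios were 0.23 (noise SD 0.083) and 0.24 (noise SD 0.10), or 1.17-fold and 1.18-fold. For shRNA over control they were 0.077 (noise SD 0.12) and 0.29 (noise SD 0.14). The first MT1X probe set was the one member that lay over 2 SD from the median of all probe sets of its signal bin, for ORF over control, where 4.82% of all probe sets did. In the other comparisons 0 of 15 members did, where 5.03% of all probe sets did for shRNA over control and 4.97% for ORF over shRNA.

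MT1E, another MT1 isoform, gave probe sets that disagreed. One read 13.26 on the ORF array, 13.19 on the shRNA array and 13.37 on the control array (212859_x_at), so that control was highest. The other read 12.39 on the ORF array, 12.17 on the shRNA array and 12.17 on the control array (216336_x_at), so that ORF was highest. The log2 ratios for ORF over control were -0.10 (noise SD 0.083) and 0.22 (noise SD 0.10), of opposite sign. No direction can be given for MT1E from them.

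MT1H, an isoform encoded beside MT1G, read 12.26 on the ORF array, 12.35 on the shRNA array and 12.09 on the control array (206461_x_at). The ORF and shRNA arrays lay above control, by a log2 ratio of 0.18 for ORF (noise SD 0.10) and 0.26 for shRNA (noise SD 0.14). MT1G read 10.98 on the ORF array, 10.98 on the shRNA array and 10.84 on the control array (204745_x_at). Its ratio to control was 0.14 on both arrays, with noise SDs of 0.13 for ORF and 0.18 for shRNA. The second MT1G probe set read 3.02 on the ORF array, 2.86 on the shRNA array and 1.94 on the control array (210472_at), below the floor, where no ratio is given.

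MT1F differed little between the arrays. Its brighter probe set read 11.74 on the ORF array, 11.63 on the shRNA array and 11.61 on the control array (217165_x_at), and the dimmer one 9.48, 9.45 and 9.48 on the ORF, shRNA and control arrays (213629_x_at). The log2 ratios for ORF over control were 0.14 (noise SD 0.10) and 0.0048 (noise SD 0.19). MT1M, a further isoform, read 4.51 on the ORF array, 0.97 on the shRNA array and 1.66 on the control array (217546_at). These values are below the floor, so no difference in MT1M was measurable.

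Over the 9 metallothionein probe sets above the floor, ORF was higher than control in 8 and lower in 1, where 50.5% of the 12077 bright probe sets were higher and 49.5% lower, and the count was 7 of 9 under quantile normalization, loess centring and equal medians, each of which turned the dimmer MT1F probe set. The median log2 ratio was 0.18, and none reached 1.2-fold (0 of 9), where 8.43% of bright probe sets were at least 1.2-fold higher and 6.96% lower. That 0 depends on the scaling: under loess centring MT1X (208581_x_at) was at 0.277, past the 1.2-fold cut of 0.263. By a rule chosen after the values were seen, 4 of the 9 (MT2A, both MT1X probe sets and the second of MT1E) were higher by over 2 noise SD and 0 lower, against 6.73% and 6.75% of bright probe sets. Since probe sets of this family can read the same transcripts, 9 probe sets are not 9 separate readings.

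For shRNA over control, 6 of the 9 metallothionein probe sets were higher and 3 lower, where 48.1% of bright probe sets were higher and 51.9% lower, with a median of 0.028. The number higher was 7 under quantile normalization and loess centring, and 5 with equal medians. One (MT1X, 204326_x_at) reached 1.2-fold, where 11.6% of bright probe sets were at least 1.2-fold higher, and it was also the 1 of 9 higher by over 2 noise SD, against 5.52% of bright probe sets. MT1H (206461_x_at) lay just under 1.2-fold, at 0.2625 against a cut of 0.2630. It was past that cut under quantile normalization (0.279) and loess centring (0.271). Under quantile normalization it was also over 2 of the same noise SD (0.137). For ORF over shRNA, 6 were higher and 3 lower, where 52.7% of bright probe sets were higher and 47.3% lower, with a median of 0.069. Of the 9, MT2A alone was higher by over 2 noise SD (5.64% of bright probe sets were, and 5.62% were lower). Both ratios to control share the control array. Of the 9, the highest reading was on the ORF array for 5, on the shRNA array for 3 and on the control array for 1, and the lowest was on control for 6 and on shRNA for 3.

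**Figure D3:**
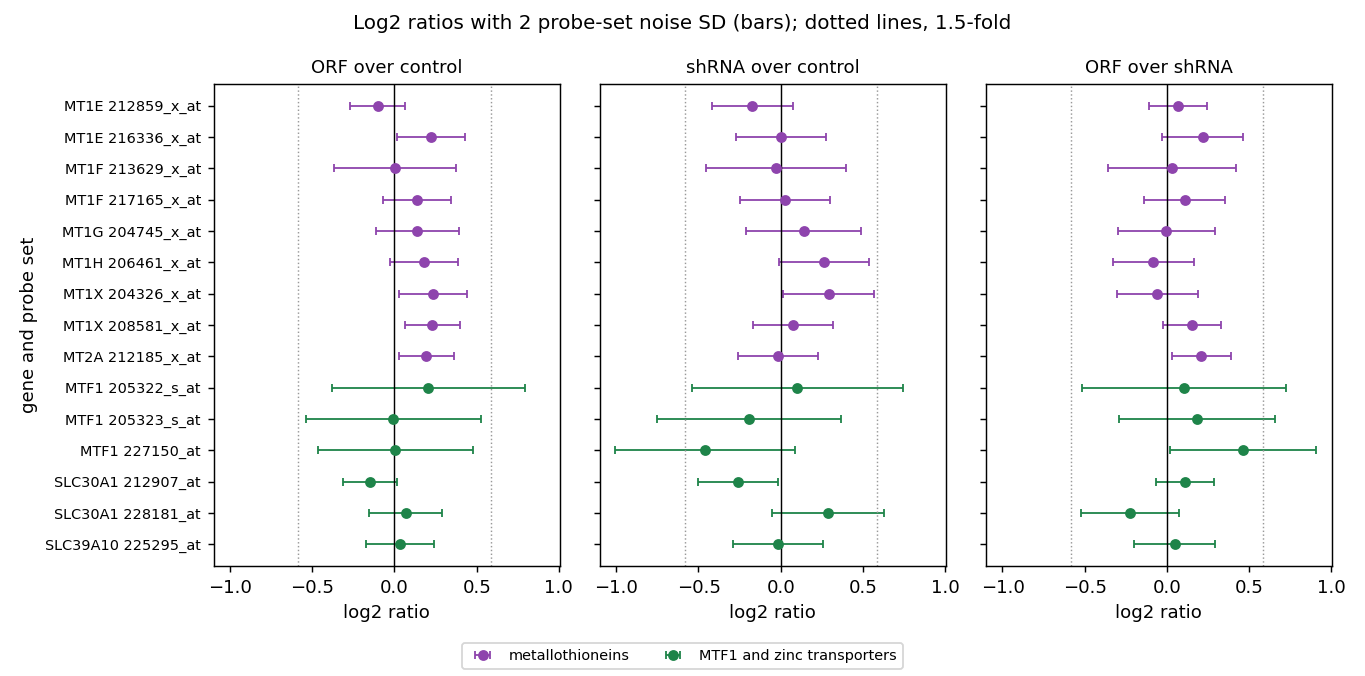
Log2 ratios of the 15 probe sets above the floor for ORF over control, shRNA over control and ORF over shRNA, with bars of 2 noise SD on each side. Dotted lines mark 1.5-fold, and all 15 points lie between them in each panel, from -0.46 to 0.46.

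MTF1, the zinc sensor itself, had readings from 7.66 to 8.89 on its 3 probe sets, which differed in their order of arrays. The brightest read 8.89 on the ORF array, 8.43 on the shRNA array and 8.89 on the control array (227150_at). The shRNA array was the low one, with a log2 ratio of -0.46 over control (1.37-fold lower, noise SD 0.27) and 0.46 for ORF over shRNA (1.38-fold, noise SD 0.22). These were the largest differences in size among the 15 probe sets with the floor at the median. With the floor at the 75th percentile, above its shRNA reading, they were -0.26 and 0.26, under 1.2-fold. For shRNA over control this was then smaller in size than the 0.29 of MT1X (204326_x_at) and of SLC30A1 (228181_at). For ORF over shRNA it stayed the largest in size among the members. The second MTF1 probe set read 8.44 on the ORF array, 8.26 on the shRNA array and 8.45 on the control array (205323_s_at), a log2 ratio of -0.19 for shRNA over control (noise SD 0.28). The remaining one read 7.87 on the ORF array, 7.76 on the shRNA array and 7.66 on the control array (205322_s_at), a ratio of 0.10 for shRNA over control (noise SD 0.32). For ORF over shRNA all 3 were positive (0.10 to 0.46), while for shRNA over control they differed in sign. At 1.2-fold, the brightest MTF1 probe set was the 1 of 13 bright members lower for shRNA over control (11.2% of bright probe sets were) and the 1 of 13 higher for ORF over shRNA (9.05% were higher and 8% lower). With equal medians SLC30A1 (212907_at) was at least 1.2-fold lower for shRNA over control too, at -0.265. The brightest MTF1 probe set was also higher by over 2 noise SD for ORF over shRNA. Under loess centring that ratio was 0.4438, just under 2 of the same noise SD (0.2229).

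The genes most like this 1 probe set of MTF1 (227150_at) in their pair of ratios to control, by Euclidean distance among 7839 genes of high mean signal, were MYO15B, SETDB1, PRDM10, TADA3 and TMEM41A, at distances from 0.018 to 0.043. Their log2 ratios for shRNA over control ran from -0.47 to -0.45. Such likeness, on 3 arrays, is not particular to the genes named: 50 of the 7839 genes lay within 0.1.

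SLC30A1, the zinc exporter and MTF1 target, gave probe sets that pointed opposite ways. The brighter read 12.88 on the ORF array, 12.76 on the shRNA array and 13.02 on the control array (212907_at), with control highest. The other read 11.16 on the ORF array, 11.39 on the shRNA array and 11.10 on the control array (228181_at), with shRNA highest. For shRNA over control the log2 ratios were -0.26 (noise SD 0.12) and 0.29 (noise SD 0.17). The first was the 1 member lower by over 2 noise SD in that comparison, against 5.5% of bright probe sets. Under loess centring its ratio was -0.23, within 2 of the same noise SD. With equal medians that ratio was -0.265, past 1.2-fold lower. The second and MT1X (204326_x_at) were the 2 of 13 bright members at least 1.2-fold higher. MT1H joined them under quantile normalization and loess centring. For ORF over control the log2 ratios of the first and second SLC30A1 probe sets were -0.15 (noise SD 0.083) and 0.068 (noise SD 0.11). A further SLC30A1 probe set read 1.99 on the ORF array, 1.51 on the shRNA array and 0.81 on the control array (242716_at), below the floor.

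SLC39A10, the importer, read 12.23 on the ORF array, 12.18 on the shRNA array and 12.20 on the control array (225295_at). Its 3 readings spanned 0.048 on the log2 scale, less than its noise SD of 0.10 to 0.14. The log2 ratio was 0.032 for ORF over control and -0.016 for shRNA over control.

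**Figure D4:**
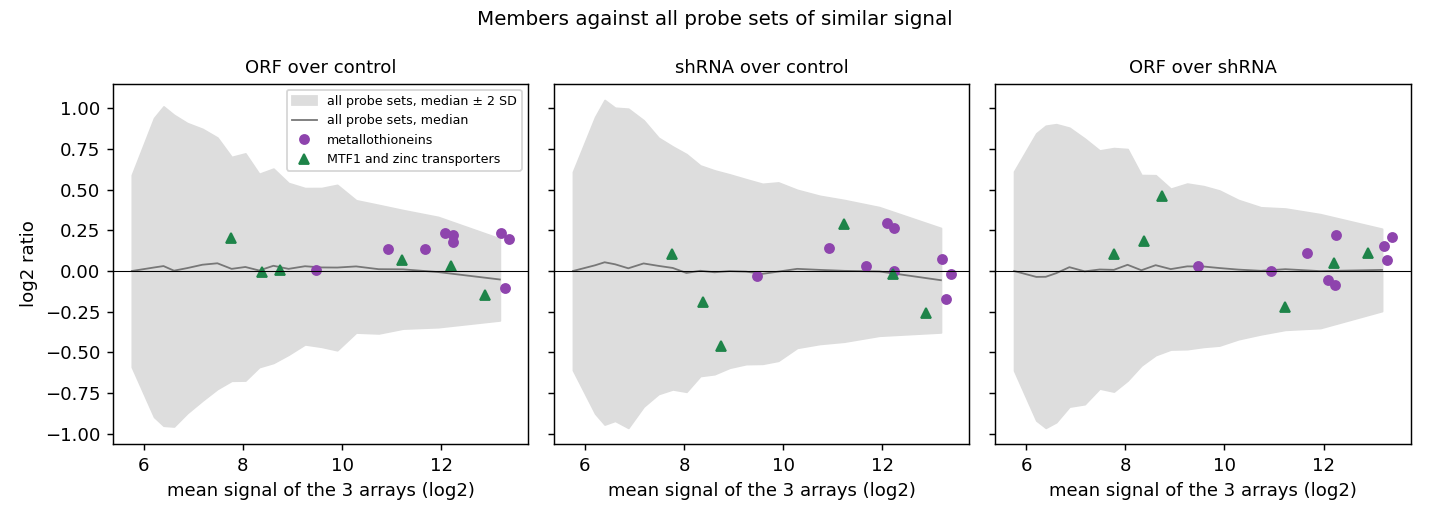
Log2 ratio (y axis) against mean log2 signal of the 3 arrays (x axis) for the metallothioneins (circles) and for MTF1, SLC30A1 and SLC39A10 (triangles), with the median of all 24382 probe sets above the floor (line) and 2 SD on each side (grey), by signal bin. Among probe sets of their own bins, 1 of 15 members lies over 2 SD from the median for ORF over control and 0 of 15 in each other panel.

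Other genes of zinc and copper handling, each read by its probe set of highest mean signal, gave the counts that follow. Over 12664 genes above the floor, 3.04% were at least 1.5-fold higher and 2.82% lower for ORF over control, 3.59% and 3.3% for shRNA over control, and 2.64% and 2.68% for ORF over shRNA. The counts of the zinc importers and exporters, all 0, lie near those shares and show nothing particular to them. The copper genes and the further metallothioneins, 8 and 2 genes above the floor, are too few for a count of 1 to be set against a share. Of 13 zinc importers of the SLC39 family, 11 were above the floor, and 0 reached 1.5-fold in either direction in any of the 3 comparisons. SLC39A7, which releases zinc from the endoplasmic reticulum, read 10.61 on the ORF array, 10.62 on the shRNA array and 10.23 on the control array, log2 ratios of 0.38 (noise SD 0.14) and 0.39 (noise SD 0.18) to control. SLC39A8, a plasma membrane importer of zinc and manganese, read 12.18 on the ORF array, 12.23 on the shRNA array and 11.93 on the control array, ratios of 0.25 (noise SD 0.10) and 0.30 (noise SD 0.14). The ORF and shRNA arrays were thus above control for each of these importers. SLC39A5, an importer known from intestine and pancreas, had a log2 ratio of -0.40 for ORF over shRNA (noise SD 0.41). SLC39A11 was below control on both, with log2 ratios of -0.26 for ORF and -0.41 for shRNA, with noise SDs of 0.37 and 0.40.

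Of 10 zinc exporters besides SLC30A1, 5 were above the floor and 0 reached 1.5-fold in any comparison. SLC30A4, which loads zinc into vesicles, had log2 ratios of 0.52 for ORF and 0.44 for shRNA over control, each with a noise SD of 0.45. SLC30A7, which supplies the Golgi, read 10.997 on the ORF array, 10.653 on the shRNA array and 10.930 on the control array, 0.34 for ORF over shRNA (noise SD 0.15). Of 8 copper genes, all above the floor, 0 reached 1.5-fold for ORF over control. For shRNA over control 1 was higher, SLC31A2, a relative of the copper importer SLC31A1, at 0.89 (noise SD 0.40). It read 7.27 on the ORF array, 7.65 on the shRNA array and 6.76 on the control array. The ORF array was thus above control too, by 0.51 (noise SD 0.37). The copper exporter ATP7A read 8.67 on the ORF array, 9.10 on the shRNA array and 9.15 on the control array, a log2 ratio of -0.48 for ORF over control (noise SD 0.20).

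Of 10 further metallothionein genes and pseudogenes listed, 3 were measured and 2 passed the floor. MT3, the form known from brain, read 5.987 on the ORF array, 7.001 on the shRNA array and 6.177 on the control array. Its log2 ratio was 0.82 for shRNA over control (noise SD 0.45) and -1.01 for ORF over shRNA (noise SD 0.41), close to the floor, and it was the 1 of 2 past 1.5-fold in each of these comparisons. Of all genes above the floor, 3.59% were that much higher in the first comparison and 2.68% that much lower in the second. A list of 2 is too short to set against them. MT1HL1, a copy resembling MT1H, read 12.45 on the ORF array, 12.60 on the shRNA array and 12.64 on the control array, with control highest, unlike MT1H. Its log2 ratio was -0.19 for ORF over control (noise SD 0.083), lower by over 2 noise SD, where 4 of the 9 member probe sets were higher. All probe sets of its signal bin had a median of -0.052 in that comparison, which is part of this ratio. MT1HL1 was read by an _x_at probe set too, which can match transcripts of several family members.

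**Figure D5:**
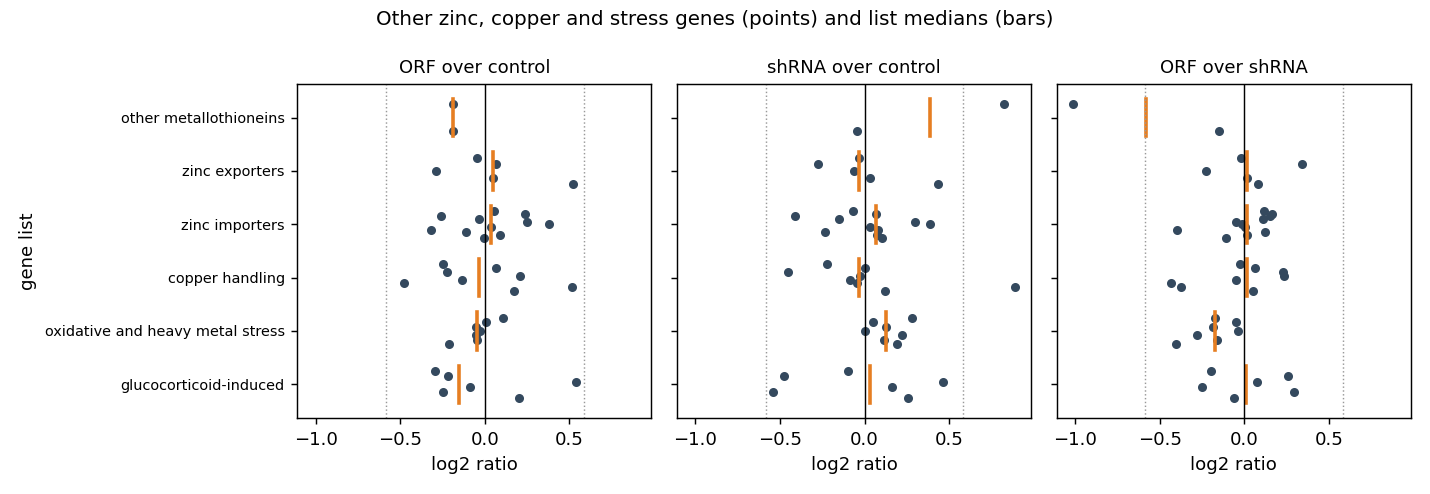
Log2 ratios of the genes above the floor in 6 lists (points), each by its probe set of highest mean signal, with the list medians as bars and 1.5-fold as dotted lines. The zinc exporter and zinc importer medians lie between -0.030 and 0.071, and MT3 in the list of other metallothioneins is the point at 0.82 for shRNA over control and -1.01 for ORF over shRNA.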

How the data were processed

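Total RNA of 3 cultures was labelled by a 3′ in vitro transcription kit and measured on 1 array each, per the labels' protocols. The authors deposited log2 signals for 54675 probe sets, made with MAS5 per the submitters' processing notes; no version is given in the sources used here. The log2 scale was read from the values, since the 2% trimmed means of the linear signals were nearly equal (500.1). Probe sets were named by GEO's platform annotation (41097 with 1 symbol) and RefSeq's gene table (GRCh38.p14, 41043 matched). Arrays were scaled to equal trimmed means, and signals below the pooled median were set to it before ratios were taken, which understates differences of dim genes. The noise SD came from pairs of probe sets of 1 gene whose mean log2 signals lay within 1 of each other. Python 3.11.15, numpy 2.4.6, pandas 2.3.3, scipy 1.17.1, statsmodels 0.14.6 and matplotlib 3.10.9 were used. The ratio and noise steps were tested on simulated data. Members and lists were chosen with earlier results of these data known. Named genes are HSPB1, every member probe set, up to 4 genes per list with the largest ratios, and the 5 genes most like the member of largest ratio. Alternatives were quantile normalization, loess centring, equal medians, the 75th percentile as floor or none, leaving out _x_at and _s_at probe sets, gene medians, and folds of 1.2 and 2.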

Additional observations from a re-analysis of the deposited data

How the results depend on the processing

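No paired analysis was possible because each group had 1 array. The counts at 1.5-fold stayed at 0 under quantile normalization, loess centring, equal medians, a floor at the 75th percentile, gene medians, leaving out _x_at and _s_at probe sets, and a 2-fold threshold. Without the floor, the dim probe sets of MT1G, MT1M and SLC30A1 gave 3 higher for ORF over control, 2 higher and 1 lower for shRNA over control, and 1 higher for ORF over shRNA. At 1.2-fold, 2 were higher and 1 lower for shRNA over control, and 1 was higher for ORF over shRNA. These counts at 1.2-fold depend on the scaling. MT1X (208581_x_at) was past it for ORF over control under loess centring. For shRNA over control, MT1H was past it under quantile normalization and loess centring, and SLC30A1 (212907_at) was past it, lower, with equal medians. Over 2 noise SD, chosen after seeing the data, counts were 4 higher for ORF over control, 1 higher and 1 lower for shRNA over control, and 2 higher for ORF over shRNA. With ratios from loess centring and the same noise SD, the SLC30A1 probe set lower for shRNA over control fell within 2 noise SD. The MTF1 probe set higher for ORF over shRNA did so too. Under quantile normalization MT1H (206461_x_at) was instead gained for shRNA over control, at 0.279 (noise SD 0.137). Leaving out _x_at and _s_at probe sets left 4, none of a metallothionein, with medians of 0.019 for ORF over control and -0.14 for shRNA over control. Of 219 alternative values of single probe sets, 219 moved by less than the noise SD and 9 changed sign. The noise SD, from 0.083 to 0.32 for these probe sets, describes differences between probe sets of 1 gene on the same RNA. It leaves out variation between cultures and error that a gene's probe sets share. It therefore does not set the size of difference that a single array per group can show.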

Other observations

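Of genes that answer oxidative and heavy metal stress beside the metallothioneins, all 7 measured were above the floor, and 0 reached 1.5-fold in any of the 3 comparisons. Between 2.64% and 3.59% of all genes above the floor were at least that much higher and between 2.68% and 3.3% lower. The count of 0 of 7 lies near those shares and by itself shows nothing particular to the list. Its genes had medians of -0.044 for ORF over control, 0.13 for shRNA over control and -0.17 for ORF over shRNA. The medians over all genes above the floor were 0, -0.0060 and 0.0051. At any size, all 7 were lower for ORF over shRNA, where 47.3% of bright probe sets were. All 7 were higher for shRNA over control, where 48.1% of bright probe sets were. Both comparisons share the shRNA array, and GCLM and SRXN1 lay within the noise SD in each. HMOX1, the heme oxygenase induced by metals, read 11.43 on the ORF array, 11.83 on the shRNA array and 11.64 on the control array, a log2 ratio of -0.40 for ORF over shRNA (noise SD 0.12). GCLC, a subunit of the enzyme that starts glutathione synthesis, read 11.95 on the ORF array, 12.23 on the shRNA array and 12.01 on the control array, a ratio of -0.28 for ORF over shRNA (noise SD 0.12). SLC7A11, the cystine importer, was at 0.28 for shRNA over control (noise SD 0.12).

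Of the glucocorticoid-induced genes, 6 of 7 measured were above the floor and 0 reached 1.5-fold in any of the 3 comparisons, again near the share of all genes. TSC22D3 read 9.41 on the ORF array, 9.12 on the shRNA array and 9.66 on the control array, and SGK1 read 11.41 on the ORF array, 11.15 on the shRNA array and 11.62 on the control array. For shRNA over control their log2 ratios were -0.54 (noise SD 0.23) and -0.48 (noise SD 0.17). KLF9 was at 0.46 (noise SD 0.40) in that comparison, so members of the list differed in sign.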
